A study of Mus musculus with 5 samples.

Results

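SOX9 peaks called in the heart and in the limb at the same position of the mouse genome are described here. A rabbit polyclonal antibody against SOX9 and chromatin immunoprecipitation followed by sequencing (ChIP-seq) were used to map SOX9 in limb buds and in the atrioventricular canal (AVC) of wild-type C57BL/6 embryos at embryonic day 12.5, with 1 library and 1 deposited peak list for each tissue. Input chromatin without immunoprecipitation came from whole hearts of wild-type C57BL/6 embryos at embryonic day 10.5. The labels name the cells as SOX9+ valve mesenchyme and SOX9+ limb mesenchyme, while the protocol describes hand-dissected tissue, which also holds other cells. A peak list carries no expression, so the cell type could not be checked against markers, and the sources used here do not give the number of embryos behind each library.

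A member is a peak of the AVC list that shares at least 1 bp with a peak of the limb list, after peaks over an input region were removed from both. The members were thus chosen by the called positions in both lists, which also rest on the lowest height each list keeps. Of 2381 remaining AVC peaks, 699 (29.4%) were members, and they met 700 of 8339 remaining limb peaks (8.39%). These shares follow from the rule itself and are given as description. The AVC peaks that met no limb peak, 1682 in number, are called AVC-only, and the 7639 limb peaks that met no AVC peak are called limb-only. The limb list starts at a height of 28 and the AVC list at 8, so a peak called AVC-only or limb-only may have had signal below the lowest height listed in the other tissue. Because each tissue had 1 list, the spread between replicates is unknown and no test between classes of peaks was possible. Intervals on shares are Wilson 95% intervals, which cover counting error only. Positions are in mm9, the build in the submitters' processing notes, counted from 1. Peak sequences, motifs and nearby genes were not analysed here.

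SOX9 is a transcription factor with an HMG box, a domain that contacts the minor groove of DNA and bends it. In the limb it is required for mesenchyme to condense and become cartilage, where it activates genes of the cartilage matrix. In the AVC it is made by mesenchyme of the endocardial cushions, the tissue from which the heart valves form, and it is needed for that mesenchyme to expand and for the valve matrix to be laid down. Valves and cartilage share several matrix genes, which makes the sites bound in both tissues of interest.

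Shared peaks stood high in the AVC list. The height is the authors' own whole number for each peak, and its meaning is not stated, so it was ranked only within a list. Among shared peaks the AVC height ran from 8 to 188 with a median of 11 and quartiles of 9 and 18. Among AVC-only peaks it ran from 8 to 37 with a median of 8 and quartiles of 8 and 9. Most AVC-only peaks thus lay at or next to the lowest height listed, and the upper part of the list was made up largely of shared peaks. The height percentile, which places each peak within its own list, had a median of 76.9 for the shared peaks.

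The share of AVC peaks that met a limb peak was higher at each step of AVC height. At the lowest height of 8, 126 of 1066 AVC peaks were shared (11.8%, interval 10.0 to 13.9). At a height of 9 the share was 23.6% (112 of 474, interval 20.0 to 27.7), and at 10 it was 29.5% (66 of 224, interval 23.9 to 35.7). From 13 to 16 it reached 62.4% (98 of 157, interval 54.6 to 69.6). From 25 to 39 it was 90.1% (73 of 81, interval 81.7 to 94.9). All 36 AVC peaks of height 40 or more were shared (100%, interval 90.4 to 100). The tallest AVC-only peak, chr12:79451839-79452190, had a height of 37.

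**Figure D1:**
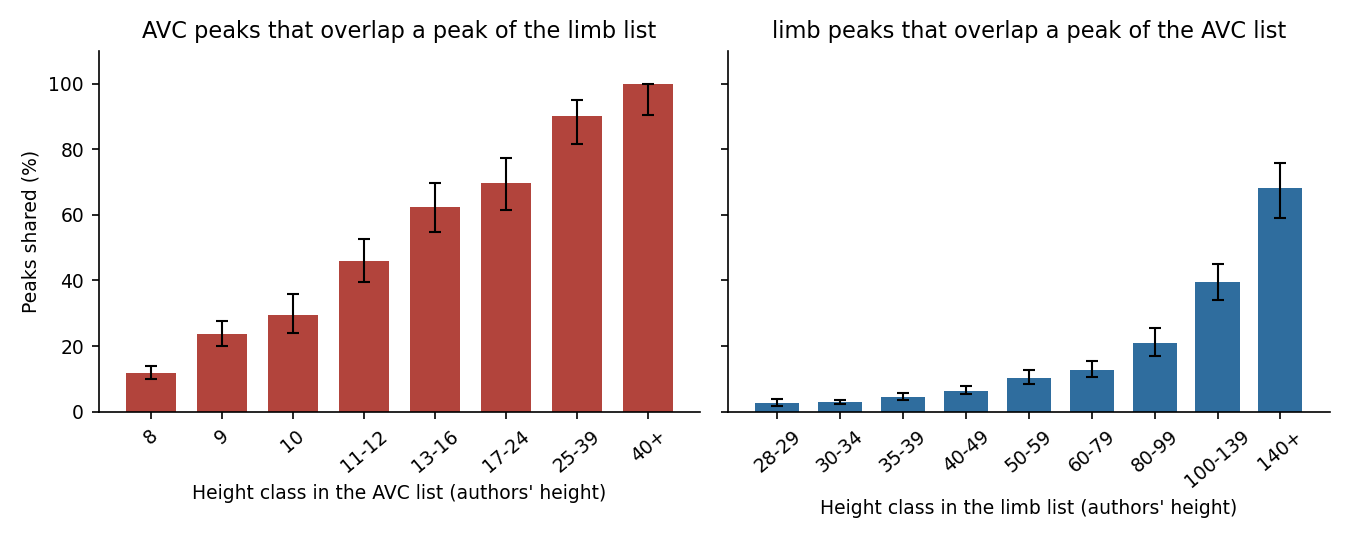
Share of peaks (percent, bars) that overlap a peak of the other list, by height class in the AVC list (left) and the limb list (right), with Wilson 95% intervals. The share goes from 11.8% to 100% over the AVC classes and from 2.62% to 68.1% over the limb classes.

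In the limb list the shared peaks also stood high, and limb-only peaks remained in each class of limb height. The 700 shared limb peaks had heights from 28 to 292, with a median of 63 and quartiles of 42 and 108. The limb-only peaks had heights from 28 to 213, with a median of 37 and quartiles of 31 and 49. Of limb peaks at 28 or 29, 28 of 1069 met an AVC peak (2.62%, interval 1.82 to 3.76). From 60 to 79 the share was 12.8% (101 of 788, interval 10.7 to 15.3), and from 100 to 139 it was 39.5% (120 of 304, interval 34.1 to 45.1). At 140 or more, 79 of 116 limb peaks were shared (68.1%, interval 59.2 to 75.9) and 37 were limb-only. The tallest limb-only peak, chr10:45613797-45614061, had a height of 213. The order of classes is therefore alike in both lists. Only the AVC list reached a class with no unshared peak, but this depends on where the top classes start. The top AVC class starts at 40, above the tallest AVC-only peak (37). The top limb class starts at 140, below the tallest limb-only peak. Limb peaks taller than 213 were all shared, as were AVC peaks taller than 37. The lists differ in length and in their lowest height, so the shares of one list cannot be set against those of the other as a tissue difference.

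Within the shared pairs the heights in both tissues went together. Over 699 pairs Spearman's rho between AVC height and limb height was 0.56, given as a description across regions of 1 library per tissue. All pairs share these 2 libraries and both lists are cut at their lowest height, so pairs with weak signal in either tissue are not seen. The median limb height was 43 for AVC peaks of height 8, 69 for heights 13 to 16, 121 for heights 25 to 39 and 143.5 for heights of 40 or more. Of the 36 tallest AVC peaks, each met a limb peak of height 110 or more, that is at limb percentile 96.3 or above. In 164 pairs (23.5%, interval 20.5 to 26.7) both peaks were at percentile 90 or more of their list. A peak at percentile 90 or more in the AVC met a limb peak under percentile 50 in 5 pairs, and the opposite combination occurred in 19 pairs. In the AVC list, under percentile 50 means the lowest height of 8, at which 44.8% of AVC peaks were tied.

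**Figure D2:**
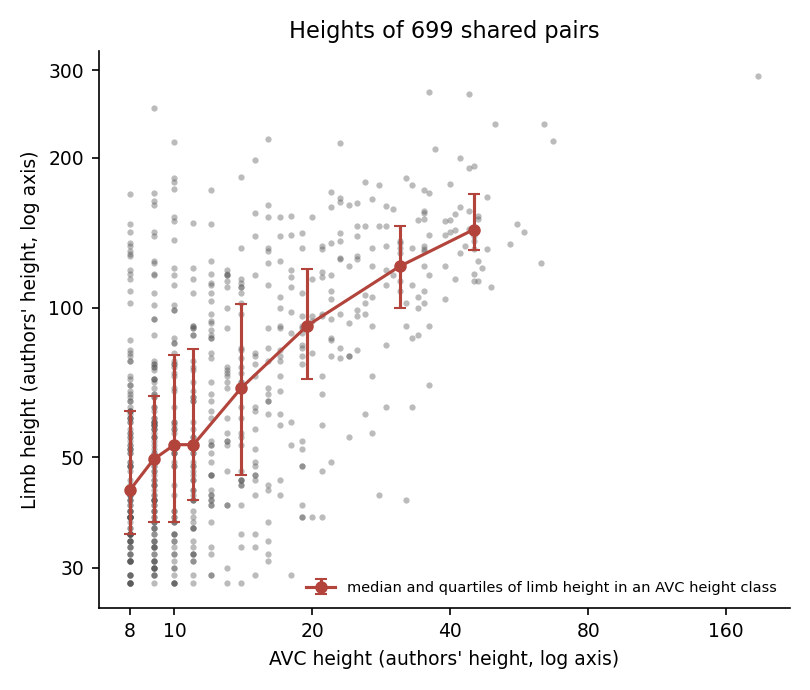
Height in the limb list against height in the AVC list for the 699 shared pairs, both on log axes, with each point 1 pair. Red points and bars are the median and quartiles of limb height in 8 classes of AVC height, and the medians go from 43 to 143.5.

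The pair with the greatest height was the same in both lists. The AVC peak at chr10:52106783-52107159 had a height of 188 and met the limb peak of height 292, the greatest of each list, with midpoints 4.5 bp apart. It stood far above the next shared peak in the AVC, which lay on chromosome 18 with heights of 67 in the AVC and 216 in the limb. The peak at chr10:80755847-80756162 followed with heights of 64 and 234. Next came chr9:107471146-107471404 with heights of 63 and 123, and chr10:8605863-8606146 with heights of 58 and 142. The region chr8:119445330-119445646 had heights of 56 and 147, and chr7:26004126-26004405 had heights of 54 and 134. In chr5:115224534-115224917 the heights were 50 and 234, in chr2:84555619-84555968 they were 49 and 110, and in chr11:96838979-96839302 they were 48 and 167. The peak at chr11:57458650-57458917 tied with the last of these at an AVC height of 48 and had the lower limb height, 131. Among the 10 peaks named before it the midpoint of the limb peak lay 36.5 bp or less from the AVC midpoint. The AVC order does not carry over exactly, since heights of 110 and 234 in the limb belong to neighbours in the AVC ranking.

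Of the next shared peaks by limb height, some were tall in the AVC and others stood near its lowest height. The limb peak over chr17:8565600-8565873 had a height of 271 and that over chr13:54795156-54795753 a height of 269, and their AVC heights were 36 and 44, at percentiles 98.13 and 99.01 of the AVC list. The AVC peak at chr8:89873692-89874156 had a height of 9 and met a limb peak of height 252. The AVC peaks chr5:123818918-123819190 and chr2:118345872-118346277 had heights of 16 and 10 and met limb peaks of height 218 and 215. A height near the AVC minimum could thus lie over one of the tallest limb peaks.

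The pairs most unequal in rank were of different kinds. The 5 pairs ranked highest in the limb relative to the AVC had an AVC height of 8, the lowest listed. At that height 1066 of 2381 AVC peaks were tied, all at percentile 22.4, while a height of 9 was at percentile 54.7. This tie favours pairs of AVC height 8 in such a ranking. Among the 5 pairs, chr13:51354644-51354937 met a limb peak of height 169, and chr6:114750711-114751053 one of height 147. The others were chr1:82473391-82473774 (limb height 142), chr3:139523132-139523757 (135) and chr11:68451808-68452233 (133). In the other direction the limb heights were 28 or 29, at the foot of the limb list. The AVC peak chr9:40338710-40338962 had a height of 14 there, and its limb midpoint was 0.5 bp away. The others were chr8:3621356-3621677 with an AVC height of 18, chr16:4590239-4590596 with 13, chr7:36181858-36182165 with 15 and a peak on chromosome 18 with 11. The AVC heights of the pairs in this direction thus ran from 11 to 18, and the highest of them, 18, was at percentile 91.3 of the AVC list.

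The paired peaks were close to coincident, though pairing by overlap already limits how far apart they can lie. The 699 pairs shared from 9 to 525 bp, with a median of 253 bp. The median pair shared 80.7% of the AVC peak and 92.4% of the limb peak, although the rule asked for 1 bp. In 632 pairs (90.4%, interval 88.0 to 92.4) the overlap covered at least 50% of both peaks. The limb peak lay wholly inside the AVC peak in 230 pairs and the AVC peak inside the limb peak in 90. The remaining 379 were staggered. Almost all pairings were single. An AVC peak met 2 limb peaks at chr1:58643285-58643581 and at chr11:113082811-113083093, and 1 limb peak on chromosome 2 met 2 AVC peaks.

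Few pairs lay at the edge of the rule. Under 100 bp were shared by 12 pairs and under 50 bp by 4. The fewest, 9 bp, were shared at chr4:118846455-118846772, with heights of 14 in the AVC and 79 in the limb. The next were chr2:84517984-84518223 with 33 bp and chr17:33897123-33897375 with 35 bp. Just outside the rule, the AVC-only peak nearest to a limb peak was chr1:155550338-155550544, 26 bases away, followed by chr17:10462753-10463015 at 55 bases and chr7:20301102-20301470 at 79 bases. All 3 had the AVC height of 8, beside limb heights of 54, 45 and 90. Of 1682 AVC-only peaks, 4 lay within 100 bp of a limb peak and 28 within 1000 bp, so that a reach of 1000 bp in place of an overlap would add 28 peaks.

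Midpoints of paired peaks differed by a median of 35 bp, with quartiles of 15.5 and 66.5 bp and a maximum of 427 bp. They lay within 50 bp in 450 pairs (64.4%, interval 60.8 to 67.8) and within 100 bp in 605 (86.6%, interval 83.8 to 88.9). The limb midpoint was at the higher coordinate in 348 pairs and at the lower in 350. The far tails were less even, with 27 limb midpoints at least 150 bp higher and 16 at least 150 bp lower. The offset tended to be smaller for taller peaks, though not at each step of AVC height. Its median was 51.25 bp at an AVC height of 8, 35.5 bp at 10 and 47.25 bp at 11 or 12. It was 34.5 bp from 13 to 16, 16.5 bp from 25 to 39 and 20.25 bp at 40 or more. Midpoints lay within 50 bp in 50% of pairs at height 8 and in 94.4% at height 40 or more. Spearman's rho of the absolute offset was -0.33 with AVC height and -0.23 with limb height over the 699 pairs. The overlap rule caps the offset, since midpoints of overlapping peaks can be no farther apart than the widths allow. A midpoint is set by both ends of a peak, and where the read maximum lay within it is not given in the lists.

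**Figure D3:**
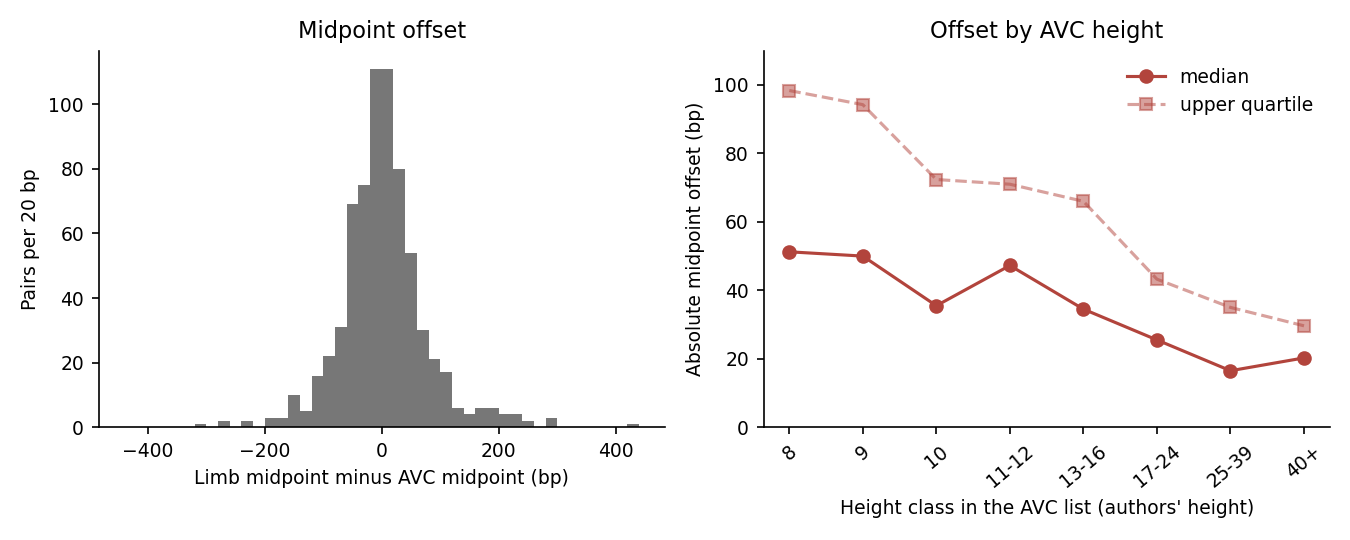
Left, number of shared pairs per 20 bp of midpoint offset (limb minus AVC, in bp). Right, median and upper quartile of the absolute offset in bp by AVC height class, with medians from 51.25 bp at height 8 to 20.25 bp at 40 or more.

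In the median, shared AVC peaks had a greater called width than their limb partners and than AVC-only peaks. The lists differ in their lowest height, and the peak caller and read depth are not known. Widths of one list therefore cannot be set against those of the other as a tissue difference. Their width ran from 202 to 839 bp with a median of 314 bp, and the limb partners had a median of 285 bp. The AVC peak was the wider of the pair in 443 cases (63.4%, interval 59.7 to 66.9), and the median difference within pairs was 30 bp. AVC-only peaks had a median width of 280 bp. A wider peak meets the overlap rule more readily, so the widths of shared and unshared peaks are not independent of the rule. At an AVC height of 8 the medians were 319.5 bp for shared and 278 bp for AVC-only peaks, at 9 they were 344 and 292 bp, at 10 they were 307 and 251.5 bp, and from 13 to 16 they were 313.5 and 246 bp. From 17 to 24 the medians were close, at 306 and 301 bp, and from 25 to 39 the 8 AVC-only peaks were the wider, with a median of 348.5 bp against 304 bp for shared peaks. Over all limb heights the difference ran the other way, with a median of 285 bp for shared and 298 bp for limb-only peaks. Shared limb peaks were also taller, and limb width fell with limb height over the pairs (rho -0.30). Within limb height classes the direction was mixed. Shared peaks were wider from 30 to 34 (344.5 and 308 bp), from 50 to 59 (292 and 290 bp) and from 60 to 79 (288 and 282 bp). In the other classes they were narrower, as from 100 to 139 (266.5 and 273.5 bp). Shared limb peaks narrowed from a median of 310 bp at heights of 28 or 29 to 258 bp at 140 or more, and limb-only peaks went from 312 to 271 bp between the same classes. Widths in the pair hardly went together (rho 0.13 over 699 pairs).

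Most shared peaks had no other shared peak within 100 kb. The median distance to the nearest other shared peak was 584 kb, with quartiles of 167 and 1861 kb. Another shared peak lay within 50 kb of 72 members (10.3%, interval 8.26 to 12.8) and within 100 kb of 125 (17.9%, interval 15.2 to 20.9). For AVC-only peaks, 9.81% had another AVC-only peak within 50 kb (165 of 1682, interval 8.48 to 11.3), close to the share among members although the AVC-only peaks are more numerous. Joined where neighbours were at most 50 kb apart, the members formed 627 single peaks, 29 groups of 2, 3 groups of 3 and 1 group of 5.

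The group of 5 spanned 64.2 kb at chr2:84510831-84575022. From the lower to the higher coordinate its AVC heights were 17, 9, 13, 49 and 29, and the limb heights were 78, 60, 60, 110 and 63. The AVC peaks of height 9 and 13 met the same limb peak, at chr2:84518191-84518482. The group thus holds 1 of the 10 tallest AVC peaks beside weaker ones. A group of 3 at chr19:41876530-41922946 had AVC heights of 9, 27 and 36 and limb heights of 39, 121 and 116. At chr7:52124920-52185387 the AVC heights were 23, 8 and 9 and the limb heights 214, 68 and 62. At chr7:29526827-29596040 the AVC heights were 9, 15 and 13 and the limb heights 46, 49 and 69. In the group of 5, and in the group on chromosome 7 with a limb height of 214, the tallest member was the same in both tissues. No AVC-only or limb-only peak lay between the outermost members of any of the 4 groups.

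Close doublets were rare, with 3 pairs of members within 1 kb. One was the pair on chromosome 2 that met a single limb peak. The others were separate peaks in both tissues with similar spacing. The AVC midpoints of chr3:95428416-95428989 and chr3:95428999-95429439 were 516.5 bp apart and those of their limb partners 500 bp. The AVC midpoints of chr6:124778910-124779166 and chr6:124779654-124780260 were 919 bp apart and those of their limb partners 956 bp.

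Around shared peaks, further limb peaks were more frequent than around AVC-only peaks. A limb-only peak lay within 50 kb of 287 of the 699 members (41.1%, interval 37.5 to 44.7) and of 505 of the 1682 AVC-only peaks (30.0%, interval 27.9 to 32.3). For limb-only peaks themselves the share with another limb-only peak in that reach was 41.9% (3199 of 7639, interval 40.8 to 43.0). The median distance to the nearest limb-only peak was 66.8 kb from members and 125 kb from AVC-only peaks that had one on their chromosome. At an AVC height of 8 the shares were 40.5% for members (51 of 126, interval 32.3 to 49.2) and 28.9% for AVC-only peaks (272 of 940, interval 26.1 to 31.9). At 17 or more they were 41.6% (82 of 197, interval 34.97 to 48.60) and 23.9% (11 of 46, interval 13.9 to 37.9). The share for members was above that for AVC-only peaks in each of 4 height classes, with overlapping intervals in the classes from 11 to 16 and from 17 up. The partner itself does not enter these counts. By the rule, however, each member lies on a limb peak and no AVC-only peak does. Limb peaks often lay near one another, with another limb peak within 50 kb of 44.6% of them (3723 of 8339). The comparison of members with AVC-only peaks is thus not independent of the rule and is given as description. An AVC-only peak lay within 50 kb of 77 of the 699 members (11.02%, interval 8.90 to 13.6), beside 9.81% of AVC-only peaks with another AVC-only peak in that reach and 8.48% of limb-only peaks (648 of 7639, interval 7.88 to 9.13). AVC-only peaks are fewer than limb-only peaks, so this share cannot be set against that for limb-only neighbours.

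**Figure D4:**
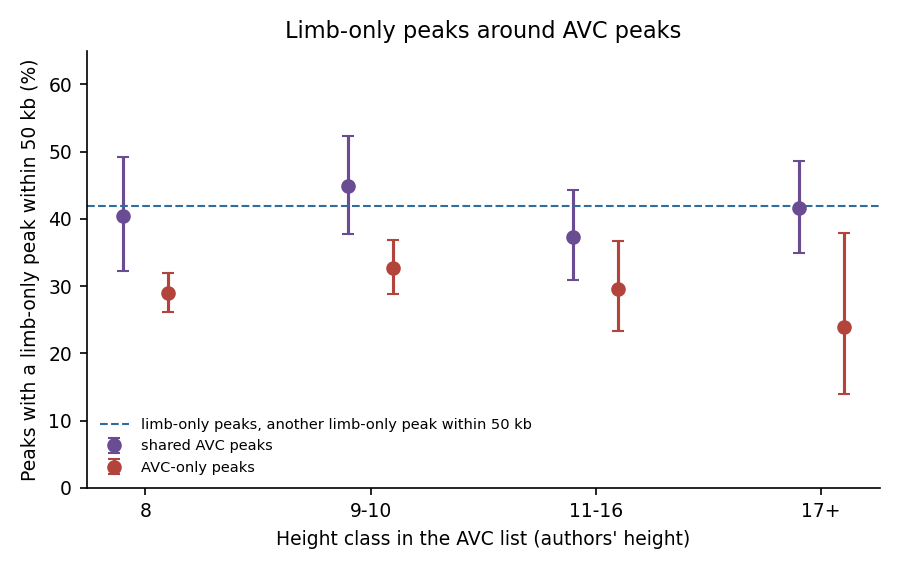
Percent of shared and AVC-only peaks with a limb-only peak within 50 kb, by AVC height class, with Wilson 95% intervals. The dashed line is the share of limb-only peaks with another limb-only peak in that reach (41.9%), and the shared peaks lie above the AVC-only peaks in each class. By the rule each shared peak lies on a limb peak, so the comparison is not independent of the rule.

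The share of AVC peaks that were shared differed between chromosomes. It was highest on chromosome 11 (59 of 133, 44.4%, interval 36.2 to 52.8), followed by chromosome 17 (50 of 122, 41.0%, interval 32.7 to 49.9), chromosome 19 (29 of 75, 38.7%, interval 28.5 to 50.0) and chromosome 7 (59 of 154, 38.3%, interval 31.0 to 46.2). Leaving out the Y chromosome with its 2 AVC peaks, it was lowest on chromosome 1 (32 of 154, 20.8%, interval 15.1 to 27.9) and chromosome 13 (25 of 117, 21.4%, interval 14.9 to 29.6). The interval of chromosome 11 did not overlap that of chromosome 1 or of chromosome 13, while those of chromosomes 11, 17, 19 and 7 overlapped one another. These chromosomes were picked from the ends of a ranking, which favours intervals that do not overlap. The intervals are thus no test of a difference between chromosomes. At AVC heights of 10 or more the share was 67.8% on chromosome 11 (40 of 59, interval 55.1 to 78.3) and 35.7% on chromosome 1 (20 of 56, interval 24.5 to 48.8), and these intervals did not overlap. At these heights chromosome 17 (71.7%, interval 57.5 to 82.7) and chromosome 19 (69.0%, interval 50.8 to 82.7) stood above chromosome 11, and the interval of chromosome 13 (44.1%, interval 28.9 to 60.5) overlapped that of chromosome 11. This restriction was chosen after the chromosome shares were seen. The number of limb peaks per AVC peak was 3.73 on chromosome 11 and 3.74 on chromosome 1. It was 3.12 on chromosome 17, 3.17 on chromosome 19, 3.01 on chromosome 7 and 3.66 on chromosome 13. The part of this number in the shares was not tested. Peaks at the lowest AVC height made up 38.3% of AVC peaks on chromosome 11 and 48.7% on chromosome 1, and the part of peak height in the difference was not tested.

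The X chromosome had 62 AVC peaks, of which 14 were shared (22.6%, interval 14.0 to 34.4). It had 105 limb peaks, or 1.69 for each AVC peak, against 3.01 to 4.01 on the autosomes. Of these limb peaks 13.3% were shared, next to 13.1% on chromosome 17 and 5.73% on chromosome 1. The 2 AVC peaks on the Y chromosome were at the lowest height and no limb peak was listed there. The sources used here do not give the sex of the embryos, and its part in the X and Y values was not tested.

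**Figure D5:**
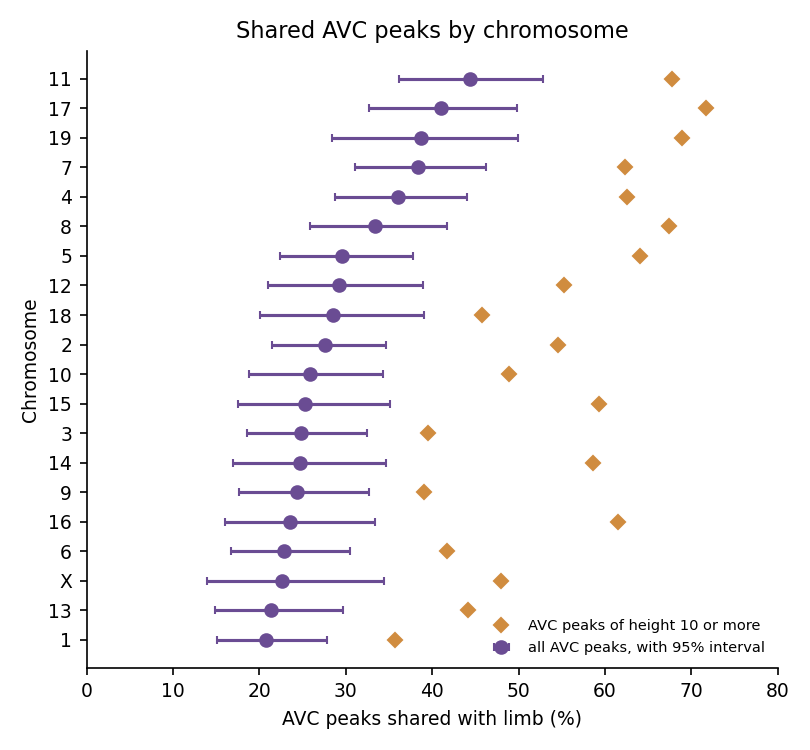
Percent of AVC peaks shared with the limb on each chromosome (circles, Wilson 95% intervals) and among AVC peaks of height 10 or more (diamonds), without the Y chromosome. Over all heights chromosome 11 has the highest share at 44.4% and chromosome 1 the lowest at 20.8%.

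Peaks over input regions were removed before the members were counted, and 79 pairs were lost in this way. In 78 of them both peaks lay over an input region and in 1 the AVC peak alone. The median AVC height of the lost pairs was 12 and the greatest 54, and their median limb height was 71. Of the 222 AVC peaks over input regions, 79 met a limb peak (35.6%, interval 29.6 to 42.1), against 29.4% of the peaks kept. The lost pairs coincided as closely as the members, with a median offset of 28 bp. The input came from whole heart at an earlier stage and is not a matched control for either library.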

How the data were processed

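The deposited peak lists of 3 ChIP-seq samples were used, with groups taken from the sample titles. Each line gives the position of a peak and its height, a whole number that the authors deposited without a header and that is treated here as signal. BWA and mm9 are named in the submitters' processing notes. The sources used here do not give the peak caller, the read depth or the scale of the height, so heights were ranked within a list only. The limb list had 9725 lines, and 636 repeats of earlier lines were dropped. Starts were converted to count from 1.

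Of 2603 AVC and 9089 distinct limb peaks, 222 and 750 overlapped an input region and were removed. Each member was paired with the limb peak sharing the most bp. The overlap count of 699 was the same with bedtools 2.31.1. Shares, intervals and correlations were computed with scipy 1.17.1, and tables with pandas 2.3.3 in Python 3.11.15 (numpy 2.4.6). Plots were made with matplotlib 3.10.9. On simulated data the overlap count, the removal of AVC peaks over input and an upper bound on the summed offsets were tested. Spacing, groups, neighbour counts, percentiles, intervals and correlations were not tested in this way. Regions were named by rule: the 10 members tallest in the AVC (ties by limb height), the 5 next tallest in the limb, the 5 pairs most unequal in height percentile in each direction, the 3 pairs with the fewest shared bp, the 3 AVC-only peaks nearest to a limb peak, and the groups with the most members. Groups of 3 tied, so 4 groups were named. The tallest AVC-only and limb-only peaks, the peaks with several partners and the close doublets were named after their values were seen. Members and lists were chosen with earlier results of these data known. The expression table was not used, because mm9 annotation and sequence were not used here and peaks were not tied to genes.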

Additional observations from a re-analysis of the deposited data

How the results depend on the processing

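Of 74 values recomputed under another setting, 53 stayed within the error or the tolerance set for the main value and 21 did not. The 74 leave out the shares of chromosomes 11 and 1 at AVC heights of 10 or more, which both moved. Some of the 53 could hardly change, so this count overstates stability. Keeping repeated limb lines leaves the AVC peaks and their pairs as they were, and only 2 AVC peaks had 2 limb partners to choose from. At limb heights of 40 or more, 551 shared peaks in place of 699 still counted among the 53. Without the input regions 778 AVC peaks were shared. With at least 50% of both peaks shared, the share of AVC peaks was 26.5%, that of limb peaks 7.58% and the median offset 31.25 bp. With midpoints within 100 bp these were 25.4%, 7.26% and 29 bp, and the spacing was 678 kb. With AVC heights of 10 or more, 461 peaks were shared (54.8% of AVC and 5.53% of limb peaks), the median heights were 15 in the AVC and 81 in the limb, the offset 29 bp, the spacing 836 kb and the share of members in groups 8.24%. This restriction raised the share of AVC peaks by over 1.5 times, since it drops the classes in which few were shared. With limb heights of 40 or more the shares were 23.1% of AVC and 14.2% of limb peaks, and the median heights 13 and 78. With repeated limb lines kept, 9.36% of limb lines were shared. With a linking gap of 100 kb, 17.9% of members were in groups. The correlation of AVC and limb heights, the only correlation recomputed, kept its sign and ran from 0.51 to 0.58 over these settings. Over the pairs with AVC heights from 9 it was 0.57 (573 pairs), from 11 it was 0.62 (395 pairs) and from 17 it was 0.54 (197 pairs). No paired analysis was possible because each tissue had 1 list. The motif and gene steps that had been planned were not run. The unknown depth of each library limits what a missing partner shows.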

Other observations

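Repeated lines of the limb list were more frequent among shared peaks. Of the 700 shared limb peaks, 124 were listed more than once (17.7%, interval 15.1 to 20.7), against 413 of 7639 limb-only peaks (5.41%, interval 4.92 to 5.94). The share was higher among shared peaks in each of 9 limb height classes. At heights of 140 or more it was 26.6% (21 of 79, interval 18.1 to 37.2) for shared and 2.70% (1 of 37, interval 0.479 to 13.8) for limb-only peaks. At 28 or 29 it was 17.9% (5 of 28, interval 7.88 to 35.6) and 5.00% (52 of 1041, interval 3.83 to 6.49). The copies of a line have the same position and height, and 519 of the repeated peaks were listed 2 times, 14 were listed 3 times and 4 were listed 4 times. The sources used here do not say why lines repeat. The AVC list held no repeated line, so the pattern has no counterpart there. It was noticed after the data were seen.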
